A study of Mus musculus with 1646 samples.

Results

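Transforming growth factor-β (TGF-β) genes were examined in stromal cells of the mouse colon. The 10 genes comprised the ligands *Tgfb1*, *Tgfb2* and *Tgfb3*, the receptors *Tgfbr1*, *Tgfbr2* and *Tgfbr3*, and the latent TGF-β binding proteins *Ltbp1*, *Ltbp2*, *Ltbp3* and *Ltbp4*. They were chosen by name, and all 10 were found among the 46517 genes of the count table through their Ensembl identifiers. TGF-β is secreted as an inactive complex with its own propeptide, which latent binding proteins tether to the matrix. Once released, the ligand binds the type II receptor, which phosphorylates the type I receptor, and the signal passes to Smad proteins in the nucleus. In the gut the pathway is known for matrix production by fibroblasts, for smooth muscle differentiation and for restraint of epithelial growth.

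The study compared fibroblasts with mural cells, the pericytes and vascular smooth muscle cells (SMC) that wrap vessels together here with interstitial SMC of the colon mucosa, and placed colon fibroblast clusters along the crypt axis. SmartSeq2 libraries of 1646 single CD31-negative colon cells came from male mice aged 10 to 20 weeks on a C57Bl6/J background, with no treatment or deletion given in the labels. The mice belonged to 4 reporter lines, in which a fluorescent protein is driven by the promoter of the named gene, so that each sort favours cells using that promoter. There were 761 cells of PdgfrbGFP on 4 plates, 567 of Acta2GFP on 2 and 91 of Cspg4dsRED on 1, the remaining cells were of PdgfraGFP on 2 plates, and only Acta2GFP tissue was also treated with elastase. The labels do not tie cells to mice, so lines stood as replicates, and p-values measure the spread between lines. A line also differs from the others in its plates, its sort and, for Acta2GFP, its dissociation, which cannot be told apart.

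Cluster labels 1 to 8 were those the submitters gave. Cluster 7, the crypt base fibroblasts, had a mean of 1293 counts per 500000 of *Cd34* and 16.9 of *Tnc*, and cluster 2, the apex fibroblasts beneath the surface epithelium, had 41.3 and 1972. Clusters 5, 1 and 6 were the other fibroblasts. Cluster 4 (pericytes) led in *Rgs5*, at 3262, and *Kcnj8*, at 489.3. Cluster 3 (vascular SMC) had 1856 of *Myh11*, and cluster 8 (interstitial SMC) had 1339 of *Hhip* and 470.4 of *Rgs10*. Each cell had between 47598 and 1494292 counts on genes. Levels are counts per 500000 counts of a cell, averaged over the cells of a line and then over lines with at least 10 cells, and are given per kilobase of merged exons where genes are ranked by level. Since these counts also defined the submitters' clusters, tests between clusters are not independent of them. Fibroblast markers (*Pdgfra*, *Lum*, *Fbln1*, *Col1a1*) stood in mural cells at 3.67% to 16.2% of their fibroblast level, and mural markers (*Rgs5*, *Des*, *Mcam*, *Notch3*) in fibroblasts at 0.360% to 3.92% of theirs.

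Per kilobase, *Ltbp4* and *Tgfbr2* were the most abundant of the 10 genes in fibroblasts, at 174.5 and 66.9 counts per 500000 per kb (mean over 4 lines). They were followed by *Tgfbr3* (24.2), *Tgfb3* (19.3), *Ltbp1* (18.8), *Ltbp3* (10.1), *Tgfb2* (8.91) and *Tgfbr1* (4.42). The middle of this order also differed between lines. *Tgfbr3*, *Tgfb3* and *Ltbp1* had 18.3, 15.4 and 23.3 in PdgfraGFP, and *Ltbp1* exceeded *Tgfb3* in PdgfrbGFP as well, but was below both in Acta2GFP and Cspg4dsRED. *Tgfb2* exceeded *Ltbp3* in Acta2GFP (11.1 against 10.9) and Cspg4dsRED (9.56 against 7.36), and was below it in the other lines. *Tgfb1* (0.663) and *Ltbp2* (0.294) were the lowest, in an order that differed between lines, with 1.69 and 0.0308 in Cspg4dsRED and 0.189 and 0.583 in Acta2GFP. In mural cells *Ltbp4* averaged 44.3 counts per 500000 per kb over 3 lines, *Tgfb3* 33.6 and *Ltbp1* 26.4. The order of the first 2 was not the same in every line. *Ltbp4* and *Tgfb3* had 65.9 and 17.3 in Acta2GFP, 32.2 and 27.3 in PdgfrbGFP, and 34.8 and 56.2 in Cspg4dsRED.

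**Figure D1:**
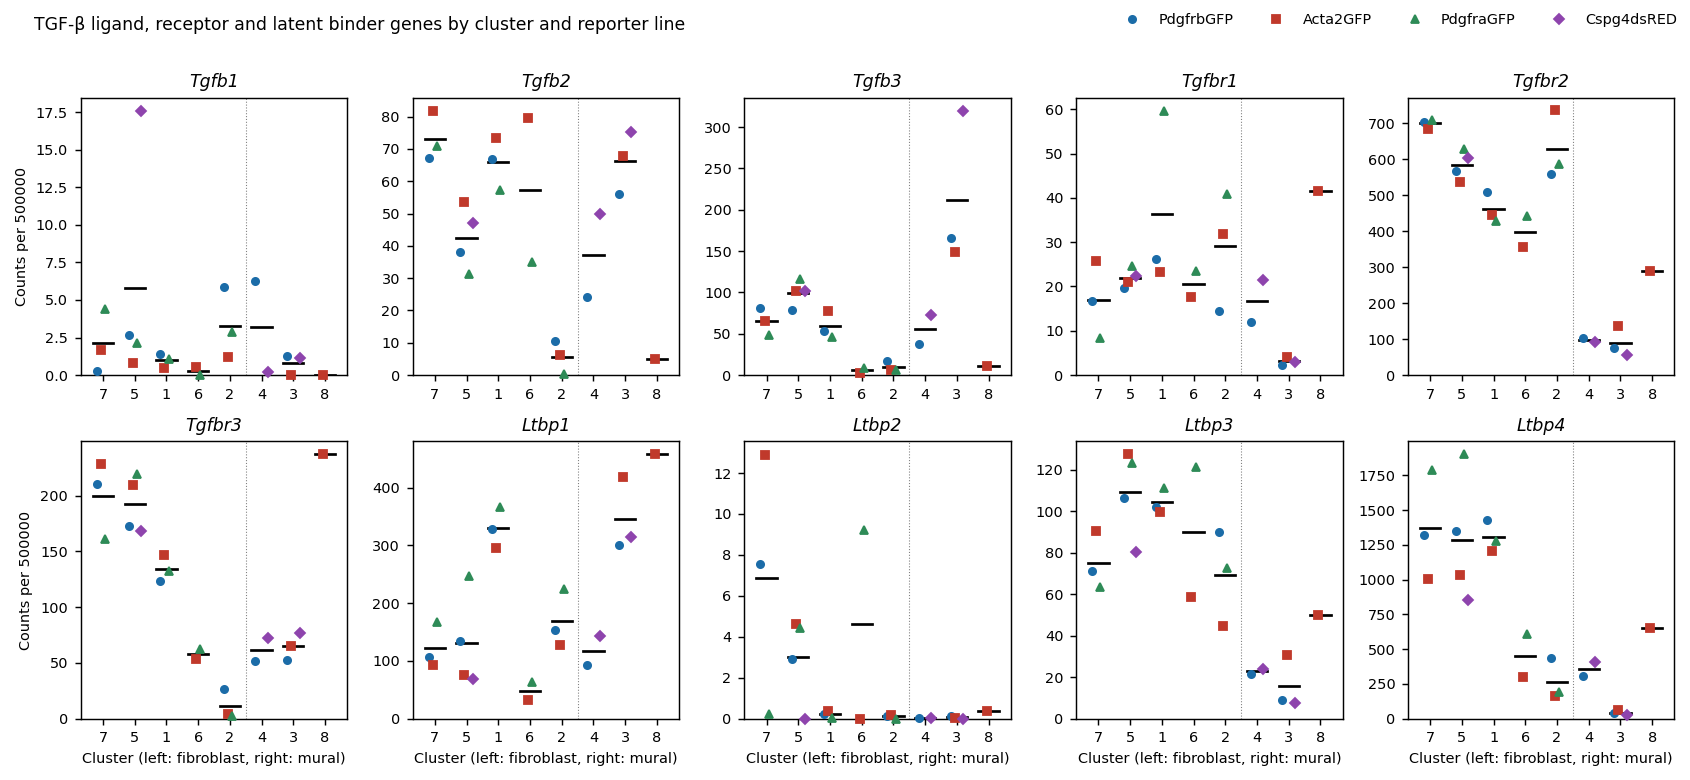
Level of each gene in counts per 500000 (vertical axis, linear, from 0, scaled per panel) in clusters 7, 5, 1, 6 and 2 (fibroblasts) and 4, 3 and 8 (mural cells). Each point is 1 reporter line with at least 10 cells of the cluster and bars are means over lines. *Tgfb2*, *Tgfb3*, *Tgfbr3* and *Ltbp4* sit lower in cluster 2 than in cluster 7, and *Tgfb3* reaches 319.5 in cluster 3 of Cspg4dsRED.

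The promoters of *Tgfb2*, *Tgfbr2* and *Ltbp1* show the sequence before the start of 1 member of each role that was called in a comparison below. Of the 10 genes, 8 had an entry in the RefSeq promoter table (GRCm38.p6), and the 250 bases before the annotated start are given, 5′ to 3′ along the gene. They are *Tgfb2* on the minus strand (chr1:186705990-186706239), *Tgfbr2* on the minus strand (chr9:116175364-116175613) and *Ltbp1* on the plus strand (chr17:75005279-75005528). Capitals mark matches, on either strand, to TATAAA (the core promoter box), GGGCGG (the GC box), CAGAC (the Smad element), TGANTCA (the AP-1 site) or TGACGTCA (the cyclic AMP response element).
*Tgfb2*: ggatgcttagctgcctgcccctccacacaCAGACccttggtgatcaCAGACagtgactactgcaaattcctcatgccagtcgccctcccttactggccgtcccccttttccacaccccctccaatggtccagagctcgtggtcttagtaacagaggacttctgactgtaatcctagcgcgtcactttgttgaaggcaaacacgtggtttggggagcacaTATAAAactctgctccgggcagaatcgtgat
*Tgfbr2*: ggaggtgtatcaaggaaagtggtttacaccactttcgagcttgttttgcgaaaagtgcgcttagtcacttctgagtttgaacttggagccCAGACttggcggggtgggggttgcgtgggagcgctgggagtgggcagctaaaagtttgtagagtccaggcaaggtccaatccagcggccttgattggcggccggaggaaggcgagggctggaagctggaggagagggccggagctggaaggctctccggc
*Ltbp1*: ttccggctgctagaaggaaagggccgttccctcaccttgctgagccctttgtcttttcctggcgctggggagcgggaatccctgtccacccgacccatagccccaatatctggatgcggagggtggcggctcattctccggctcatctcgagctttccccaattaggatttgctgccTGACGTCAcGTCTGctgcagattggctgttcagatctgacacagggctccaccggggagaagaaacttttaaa
The *Tgfb2* window held 1 core promoter box and 2 Smad elements, the *Tgfbr2* window 1 Smad element, and the *Ltbp1* window 1 cyclic AMP response element and 1 Smad element. Among all 32851 RefSeq promoter windows of this length, 12.4% held the core promoter box, 32.7% the GC box, 42.2% the Smad element, 6.75% the AP-1 site and 1.55% the cyclic AMP response element. These matches describe letters only.

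Of the ligand genes, *Tgfb1* (chr7:25687002-25705077), best known from immune cells and platelets, was the lowest. It had a count in 10.3% of all cells, and its mean over lines ran from 0 in interstitial SMC to 5.80 counts per 500000 in cluster 5. The latter rests on Cspg4dsRED, at 17.6, where the other 3 lines had 0.779 to 2.69. None of the 56 interstitial SMC had a count, which allows a share of cells with a count of up to 5.36%. This limits detection at their depth, a median of 118251.5 counts on genes, and not the share of cells that express the gene. In most sums of a cluster and line a single cell held most of the level. In pericytes of PdgfrbGFP that cell held 97.4% of the summed level, and in cluster 5 of Cspg4dsRED 98.7%. Neighbouring clusters in the order of *Tgfb1* levels overlapped in their line values in every pair.

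*Tgfb2* (chr1:186622792-186705989) encodes the ligand that depends most on the co-receptor betaglycan. In crypt base fibroblasts it stood at 67.04 counts per 500000 in PdgfrbGFP, 81.7 in Acta2GFP and 70.8 in PdgfraGFP. In apex fibroblasts the same lines gave 10.5, 6.35 and 0.335, so the clusters did not overlap. Clusters 1 and 6 averaged 65.8 ± 8.02 (SD, n = 3) and 57.2 ± 31.5 (n = 2), and cluster 5 averaged 42.4 ± 9.72 (n = 4). Vascular SMC averaged 66.4 ± 9.65 (n = 3), pericytes 37.04 ± 18.2 (n = 2), and the single interstitial SMC sum had 5.03. Its exons overlap those of *Gm29491*, and whether reads were counted by strand is not stated.

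*Tgfb3* (chr12:86056745-86079041), the ligand known from palate development, was highest in vascular SMC. The values there were 165.9 in PdgfrbGFP, 149.2 in Acta2GFP and 319.5 in Cspg4dsRED. All 3 exceeded the highest value of cluster 5, the next cluster, which ran from 78.7 to 116.8 over 4 lines. Crypt base fibroblasts had 65.04 ± 16.5 (n = 3) and cluster 1 had 58.8 ± 16.5 (n = 3), which overlapped. The lowest clusters were cluster 6, at 5.52 ± 4.58 (n = 2), apex fibroblasts, at 10.2 ± 6.20 (n = 3), and interstitial SMC, at 11.2. *Tgfb3* exons overlap those of *Gm37804*.

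Within single cells *Tgfb2* and *Tgfb3* were patchy. The level used here to call a cell high is not scaled to length, so the shares are not compared between the genes. At a level of at least 100 counts per 500000, 16.1% of 1307 fibroblasts had *Tgfb2* alone, 17.4% had *Tgfb3* alone and 5.28% had both. In vascular SMC 9.93% of cells had *Tgfb2* alone, 27.7% *Tgfb3* alone and 15.6% both. Among apex fibroblasts 0 cells had *Tgfb2* alone, 5 *Tgfb3* alone and 1 both, and among 56 interstitial SMC the counts were 0, 2 and 0.

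Among the receptors, *Tgfbr2* (chr9:116084293-116175360) encodes the type II kinase that binds the ligand. Its fibroblast level was 557.2 counts per 500000 in Acta2GFP, 557.4 in PdgfrbGFP, 544.4 in PdgfraGFP and 531.1 in Cspg4dsRED, the narrowest relative spread of the 10 genes. Mural cells had 95.1 in PdgfrbGFP, 227.5 in Acta2GFP and 73.8 in Cspg4dsRED, all below every fibroblast value. The Acta2GFP mural cells differed in makeup, since 52 of them were interstitial SMC, which had 290.5, and 29 were vascular SMC, which had 136.98 in that line. Among fibroblasts *Tgfbr2* ran from 398.8 ± 60.6 in cluster 6 (n = 2) to 699.6 ± 12.5 in the crypt base (n = 3).

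*Tgfbr1* (chr4:47353222-47414931), the type I kinase, averaged 28.9 ± 7.24 counts per 500000 in fibroblasts (n = 4) and 16.4 ± 9.53 in mural cells (n = 3). Vascular SMC were the lowest cluster, at 2.18 in PdgfrbGFP, 4.16 in Acta2GFP and 2.99 in Cspg4dsRED. These 3 values lay below both pericyte sums, 12.1 and 21.6, and below the 41.7 of interstitial SMC.

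*Tgfbr3* (chr5:107106570-107289629) encodes betaglycan, the co-receptor that presents the ligand to the type II receptor. In crypt base fibroblasts it was at 210.2 counts per 500000 in PdgfrbGFP, 228.4 in Acta2GFP and 161.05 in PdgfraGFP, and in apex fibroblasts at 26.6, 4.04 and 2.66. Clusters 5 (192.6 ± 25.99, n = 4), 1 (134.3 ± 12.05, n = 3) and 6 (57.6 ± 6.45, n = 2) lay between, and the line values of clusters 5 and 1, and of clusters 6 and 2, did not overlap. Pericytes had 61.9 ± 15.1 (n = 2) and vascular SMC 64.99 ± 11.996 (n = 3), which overlapped. Interstitial SMC had the highest level of all clusters, 237.1, in 1 line. Its exons overlap those of *Gm43422*.

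Among the latent binders, *Ltbp4* (chr7:27305136-27337692), known for elastic fibre assembly as well as TGF-β binding, was detected in 98.5% of cells. Fibroblasts had 992 counts per 500000 in Acta2GFP, 1319.7 in PdgfrbGFP, 1146 in PdgfraGFP and 1055 in Cspg4dsRED. Mural cells had 207.9 in PdgfrbGFP, 425.8 in Acta2GFP and 224.7 in Cspg4dsRED, again below every fibroblast value of the class. Apex fibroblasts alone had 161.2 in Acta2GFP and 193.8 in PdgfraGFP, below each of these mural values, and 432.2 in PdgfrbGFP. Clusters 7, 5 and 1 had means of 1369.9, 1284 and 1303, with overlapping line values, cluster 6 had 453.4 ± 217.3 (n = 2) and apex fibroblasts had 262.4 ± 147.99 (n = 3). The mural clusters were far apart, at 651 in interstitial SMC, 357.3 ± 70.1 in pericytes (n = 2) and 41.6 ± 19.02 in vascular SMC (n = 3), and their line values did not overlap.

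*Ltbp1* (chr17:75005568-75392512), which ties the latent complex to fibrillin and fibronectin, had an order of its own. Cluster 1 stood above the other fibroblasts at 328.3 counts per 500000 in PdgfrbGFP, 295.2 in Acta2GFP and 365.6 in PdgfraGFP, and apex fibroblasts had 153.5, 127.5 and 225.1. Crypt base fibroblasts had 106.8, 92.04 and 166.4 in these lines, and cluster 6 was lowest, at 31.9 in Acta2GFP and 63.2 in PdgfraGFP. Cluster 5 ran from 69.3 to 247.4 over 4 lines and overlapped both apex and crypt base fibroblasts. The line values of cluster 1 did not overlap those of any other fibroblast cluster. On plate 075s, though, cluster 1 had 203.8 and apex fibroblasts 206.9. Cluster 1 was above the apex on the other plates with at least 10 cells of each. Vascular SMC had 300.5 in PdgfrbGFP, 419.2 in Acta2GFP and 314.98 in Cspg4dsRED, and pericytes had 91.99 in PdgfrbGFP and 143.1 in Cspg4dsRED. Interstitial SMC had 458.6.

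*Ltbp3* (chr19:5740904-5758532), a binder with a known part in bone and tooth, ran among fibroblasts from 69.1 ± 22.8 counts per 500000 in the apex (n = 3) to 109.5 ± 21.5 in cluster 5 (n = 4). Mural cells had 15.8 in PdgfrbGFP, 41.9 in Acta2GFP and 16.1 in Cspg4dsRED, below every fibroblast value of the class. *Ltbp2* (chr12:84783212-84876532), a microfibril protein that does not bind latent TGF-β, was detected in 8.99% of cells. Its highest line values were 12.9 in Acta2GFP crypt base fibroblasts and 9.22 in cluster 6 of PdgfraGFP, where crypt base fibroblasts had 0.206. No mural cluster exceeded 0.373 in any line. *Ltbp2* exons overlap those of *D030025P21Rik*.

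To ask what separates the archetypes, counts summed per line were compared between fibroblasts (4 lines) and mural cells (3 lines) with edgeR's quasi-likelihood test and Benjamini-Hochberg adjustment over 19173 genes. *Tgfbr2* and *Ltbp4* were higher in fibroblasts and no member was called lower. The test called 2 of 10 members, against 6.57% of all genes in either direction, 3.21% higher and 3.36% lower. *Tgfbr2* differed by a log2 fold change of 2.00 ± 0.30 (SE, adjusted p = 0.00446) and *Ltbp4* by 2.20 ± 0.34 (adjusted p = 0.00554). On each of the 6 plates with at least 10 cells of both classes the difference had the same direction, from 1.27 to 2.83 for *Tgfbr2* and from 1.03 to 2.85 for *Ltbp4* on the log2(counts per 500000 + 1) scale.

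*Ltbp3* and *Ltbp2* were higher in fibroblasts of every line that had both classes, but gave log2 fold changes of 1.75 ± 0.54 (adjusted p = 0.0921) and 5.24 ± 1.48 (adjusted p = 0.0688), short of the threshold. *Ltbp3* was called higher in fibroblasts with DESeq2, with plates, with limma, with equal weight per cluster and without Acta2GFP (adjusted p = 0.00848 to 0.0444), and *Ltbp2* with DESeq2 and with plates. The difference of *Ltbp1* was -0.60 (95% interval -1.28 to 0.09), that of *Tgfb3* -0.96 ± 0.41 (adjusted p = 0.218) and that of *Tgfbr3* 0.94 ± 0.39 (adjusted p = 0.209). *Tgfb1*, *Tgfb2* and *Tgfbr1* differed by 1.68 ± 1.56, 0.33 ± 0.37 and 0.93 ± 0.47 (adjusted p = 0.643, 0.721 and 0.316). With each cluster given equal weight, *Ltbp1* was called lower in fibroblasts, as it was with plates, and *Tgfbr3* changed sign to -0.23. Without PdgfrbGFP the adjusted p rose to 0.0614 for *Tgfbr2* and 0.0563 for *Ltbp4*, and without Cspg4dsRED that of *Ltbp4* was 0.0528. With the reporter line as a block both stayed called, while the share of all genes called went from 6.57% to 3.08%.

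**Figure D2:**
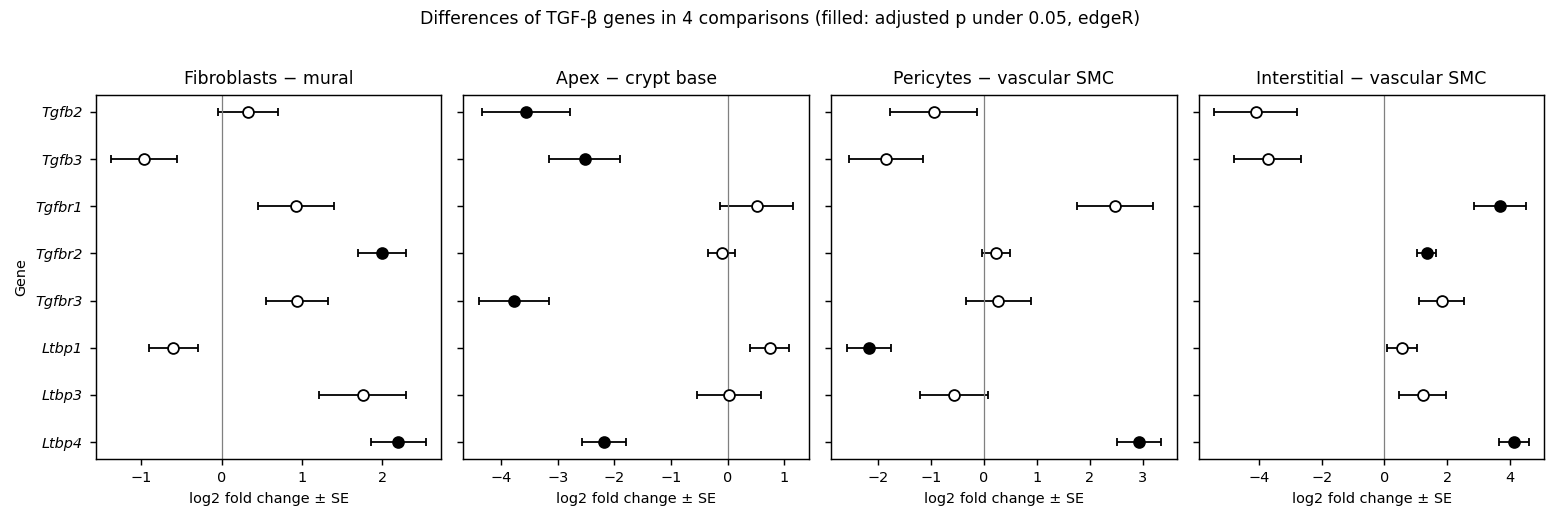
Log2 fold change (horizontal axis) with its SE for 8 members in 4 comparisons, from edgeR; *Tgfb1* and *Ltbp2*, which are near 0 in many sums, are not plotted. Filled points passed an adjusted p of 0.05: *Tgfbr2* and *Ltbp4* in fibroblasts against mural cells, 4 members lower in the apex, *Ltbp1* and *Ltbp4* in pericytes, and *Tgfbr1*, *Tgfbr2* and *Ltbp4* in interstitial SMC.

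Whether the genes change along the crypt axis was asked by setting apex against crypt base fibroblasts, in 1 fit of 21 sums over all 8 clusters. The ligands *Tgfb2* and *Tgfb3*, the co-receptor and the leading latent binder were lower in the apex. The log2 fold change was -3.56 ± 0.78 for *Tgfb2* (adjusted p = 0.0120), -2.53 ± 0.63 for *Tgfb3* (adjusted p = 0.0256), -3.78 ± 0.61 for *Tgfbr3* (adjusted p = 0.00101) and -2.18 ± 0.38 for *Ltbp4* (adjusted p = 0.00193). The 4 of 10 members called compare with 3.66% of 21739 genes, and all 4 were lower, as were 1.55% of genes, while 2.12% were higher.

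All 3 lines showed each of the 4 decreases without overlap, and each of the 4 plates with at least 10 cells of both clusters showed the same direction. The plate differences ran from -6.24 to -1.41 for *Tgfb2*, -4.22 to -1.28 for *Tgfb3*, -6.37 to -2.36 for *Tgfbr3* and -2.90 to -1.67 for *Ltbp4* on the log2(counts per 500000 + 1) scale. *Tgfbr2*, by contrast, differed by -0.11 (95% interval -0.60 to 0.38), though its plate differences, from -0.60 to -0.04, were all lower in the apex. *Ltbp1* was higher in the apex in 3 of 3 lines, by 0.74 ± 0.35, and did not pass the test (adjusted p = 0.311). On plates its difference ran from -0.33 to 1.02, with 2 of 4 plates lower in the apex. *Tgfbr1* and *Ltbp3* differed by 0.52 ± 0.64 and 0.03 ± 0.56 (adjusted p = 0.837 and 1).

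**Figure D3:**
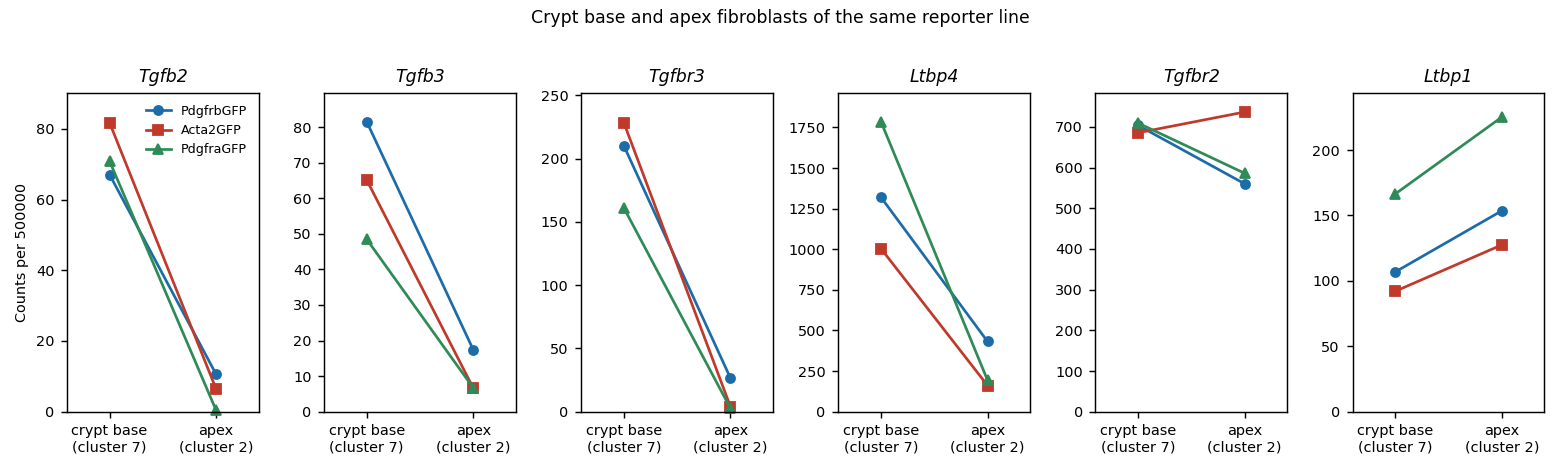
Levels in counts per 500000 (vertical axis, linear, from 0) of 6 members in crypt base and apex fibroblasts, with a line joining the 2 values of a reporter line. *Tgfb2*, *Tgfb3*, *Tgfbr3* and *Ltbp4* are lower in the apex in all 3 lines, *Tgfbr2* lies between 560.2 and 737 in the apex, and *Ltbp1* is higher in the apex in each line without passing the test.

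Only *Ltbp4* was still called without Acta2GFP (adjusted p = 0.0358), where *Tgfb2* reached 0.298, *Tgfb3* 0.181 and *Tgfbr3* 0.0577. Without PdgfraGFP *Ltbp4* (0.0623) and *Tgfb3* (0.112) lost their calls, as did *Tgfb3* without PdgfrbGFP (0.0534) and with at least 3 cells per sum (0.0890). Over the 12 alternatives the log2 fold change ran from -4.94 to -3.15 for *Tgfb2* and -3.18 to -2.31 for *Tgfb3*. For *Tgfbr3* it ran from -5.58 to -3.18 and for *Ltbp4* from -2.82 to -1.75. Genes that respond to tissue dissociation moved with this comparison. The 16 such genes summed to between 11920 and 18647 counts per 500000 in the apex and between 3555 and 4964 in the crypt base, and their part in the result was not tested. The summed level of *Kit* and *Ano1*, markers of interstitial cells of Cajal, was 98.1 to 219.6 in the apex and averaged 0.970 in the base. *Kit* alone averaged 0.503 and 0.204 there, so the apex sum was nearly all *Ano1*, and its part was not tested. Markers of interstitial SMC summed to 253.8 to 355.7 in the apex and 28.6 to 43.9 in the base, of which *Rgs10* averaged 312.9 and 17.2 and *Hhip* 3.40 and 20.1. Pericyte markers summed to 15.1 to 38.4 and 1.38 to 14.7, and mural markers to 0.475 to 22.1 and 46.1 to 66.9. Smooth muscle markers were higher in the apex in 3 of 3 lines, at 315.4 against 108.6 in Acta2GFP, 101.6 against 11.03 in PdgfraGFP and 194.001 against 36.9 in PdgfrbGFP. Their part was not tested.

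Across the 5 fibroblast clusters, a joint test in edgeR called *Tgfb3* (adjusted p = 0.00576), *Tgfbr3* (0.00225), *Ltbp1* (0.000175) and *Ltbp4* (0.000961). That is 4 of 10 members, against 7.09% of all genes. *Tgfb2* came next, at 0.0545, and was called in 5 alternatives, and *Tgfbr2* had 0.113. *Tgfbr1* (0.943), *Ltbp3* (0.957), *Ltbp2* (0.129) and *Tgfb1* (0.370) were not called. Without Acta2GFP *Ltbp1* was the only member called, with an adjusted p of 0.0478, and without PdgfraGFP *Tgfbr3* was at 0.0574.

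Pericytes (2 lines) were then set against vascular SMC (3 lines), the mural cell types of vessels. *Ltbp4* was higher in pericytes, by a log2 fold change of 2.93 ± 0.42 (adjusted p = 0.000811), and *Ltbp1* was lower, at -2.17 ± 0.42 (adjusted p = 0.0143). So 2 of 10 members were called, against 0.819% of genes, 0.621% higher and 0.198% lower. *Tgfb3* and *Tgfbr1* had line values that did not overlap but did not pass, at -1.85 ± 0.71 (adjusted p = 0.280) and 2.48 ± 0.73 (adjusted p = 0.145). *Tgfbr1* was called higher in pericytes with DESeq2 (adjusted p = 0.00637) and with limma (0.0421). *Tgfbr2* differed by 0.23 (95% interval -0.31 to 0.78).

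Without Cspg4dsRED neither gene was called, and without PdgfrbGFP *Ltbp1* was not. Pericytes had 1 sum in each of these fits, so the spread came from other clusters and the fits cannot decide the matter. *Ltbp1* also lost its call without Acta2GFP (adjusted p = 0.109), with at least 3 cells per sum, with plates in place of lines and with limma. Over the alternatives its log2 fold change ran from -2.31 to -1.09, and that of *Ltbp4* from 2.46 to 3.45. The 4 endothelial markers summed to 22.1 and 79.99 counts per 500000 in pericytes and 6.13 to 9.13 in vascular SMC. *Tie1* made up most of this, at 39.1 of a mean of 51.02 in pericytes, where *Cdh5* had 0.687, *Kdr* 1.82 and *Pecam1* the rest. The 4 fibroblast markers, which include *Col1a1* at 427.9 in pericytes and 118.9 in vascular SMC, summed to 550.3 and 798.3 in pericytes and 99.8 to 357.6 in vascular SMC, without overlap. Dissociation genes summed to 2398 and 2533 in pericytes and 8457 to 14842 in vascular SMC. The part of these genes in the difference was not tested.

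Interstitial SMC, from 52 cells of Acta2GFP, form 1 sum with no spread of its own, which was assumed to vary like the others when set against vascular SMC. The cell type cannot be told apart from the sort and elastase step of that line, except against the 29 vascular SMC of the same line. Within Acta2GFP, interstitial and vascular SMC had 651 and 61.96 counts per 500000 of *Ltbp4*, 41.7 and 4.16 of *Tgfbr1*, and 290.5 and 136.98 of *Tgfbr2*. *Ltbp4* was higher by a log2 fold change of 4.13 ± 0.47 (adjusted p = 9.69e-05), *Tgfbr1* by 3.69 ± 0.83 (adjusted p = 0.0323) and *Tgfbr2* by 1.34 ± 0.31 (adjusted p = 0.0385). The 3 of 10 members called, all higher, compare with 1.01% of genes, 0.879% higher and 0.129% lower. The median log2 fold change of all genes was -0.19 in this comparison, so that differences are read against that value. *Tgfb2* and *Tgfb3* were at 5.03 and 11.2 in this sum, against 67.9 and 149.2 in vascular SMC of the same line, and did not pass (adjusted p = 0.183 and 0.118), though both were called lower with DESeq2 and with limma. *Ltbp4* stayed called under all 11 alternatives run, *Tgfbr1* under 7 and *Tgfbr2* under 2. The 4 fibroblast markers summed to 816.9 in interstitial SMC and 99.8 to 357.6 in vascular SMC, where all 4 were detected. Pericyte markers summed to 232.1 and 734.4 to 1148.5, mural markers to 484.4 and 2613 to 3026, and the Cajal markers *Kit* and *Ano1* to 23.6 and 245.3 to 363.8. Smooth muscle markers summed to 9658 and 4261 to 6955. The part of these in the difference was not tested. Without Cspg4dsRED and without PdgfrbGFP *Tgfbr1* was at 0.0535 and 0.224.

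The other genes of the pathway were read from 5 lists of 46 genes, of which 45 were tested. Between fibroblasts and mural cells 10 were called, 8 higher and 2 lower, where 6.57% of all genes were called, and the median log2 fold change over the tested genes was 0.37, against -0.03 for all genes. In the list on the latent complex and its activation, 4 of 15 genes were higher in fibroblasts. *Mmp2*, a gelatinase that can release latent TGF-β, was at 973 ± 181.3 counts per 500000 in fibroblasts (n = 4) and 99.9 ± 34.7 in mural cells (n = 3), a log2 fold change of 3.51 ± 0.33 (adjusted p = 0.000480). *Fbn1*, the fibrillin to which latent binders attach, was at 714 ± 157.7 and 69.7 ± 17.9 (3.47 ± 0.41, adjusted p = 0.00171). *Bmp1*, a protease that can cleave latent binders, differed by 2.26 ± 0.32 (adjusted p = 0.00378), and *Mmp14* was the other gene called, named here to complete the count.

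No receptor partner (0 of 4 tested) and no intracellular transducer (0 of 6) was called between the classes, where 6.57% of all genes were. At that share lists this short can hold no call, so the counts of 0 say little about these genes. Of 11 inhibitors 2 were higher in fibroblasts, *Pmepa1*, which sequesters Smad proteins, by 2.74 ± 0.45 (adjusted p = 0.00716), and *Dcn*, which encodes the proteoglycan decorin, by 2.74 ± 0.51 (adjusted p = 0.0129). Of 9 target genes *Col1a1* and *Fn1* were higher and *Tagln* and *Acta2* lower in fibroblasts, by 2.82, 2.84, -5.85 and -4.28. *Col1a1*, *Acta2* and *Tagln* also mark the classes, so their direction is no separate result.

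In the apex against the crypt base 9 of the 45 genes were called, 5 higher and 4 lower, where 3.66% of all genes were called, with a median of 0.73 against 0.00 for all genes. The fibrillins moved in opposite directions. *Fbn1* was at 132.2 ± 58.4 counts per 500000 in the apex and 1845 ± 274.9 in the base (n = 3 each), a log2 fold change of -3.66 ± 0.75 (adjusted p = 0.00690). *Fbn2* was at 22.6 to 40.04 in the apex and 0.0370 to 0.191 in the base (adjusted p = 0.0188). *Emilin1*, which restrains processing of the TGF-β precursor, and *Tgm2*, which crosslinks the latent complex to matrix, were higher in the apex by 2.23 ± 0.42 and 1.67 ± 0.34 (adjusted p = 0.00368 and 0.00650), and *Bmp1* was lower, at -1.27 ± 0.35 (adjusted p = 0.0431).

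Target genes also split in the apex. *Tgfbi*, a matrix protein named for its induction by TGF-β, stood at 1602 ± 418.3 counts per 500000 against 97.5 ± 37.7 in the base (n = 3 each; 3.97 ± 0.77, adjusted p = 0.00445), and *Tgfb1i1* was higher by 1.12 ± 0.26 (adjusted p = 0.0149). *Ccn2*, the connective tissue growth factor, stood at 19.2 ± 6.48 against 176.5 ± 10.4 (-2.96 ± 0.37, adjusted p = 9.34e-05). Of the inhibitors *Dcn* alone was called, lower at -2.75 ± 0.74 (adjusted p = 0.0421). The calls were 0 of 4 receptor partners and 0 of 6 transducers, where 3.66% of all genes were called, and such short lists can hold no call at that share. Among the fibroblast clusters 14 of 45 pathway genes were called, where 7.09% of all genes were. Between pericytes and vascular SMC 3 of 45 were called, where 0.819% of all genes were, all higher in pericytes (*Eng*, *Mmp2* and *Postn*, named here after their values were seen). Between interstitial and vascular SMC 6 were called, all higher, where 1.01% of all genes were.

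**Figure D4:**
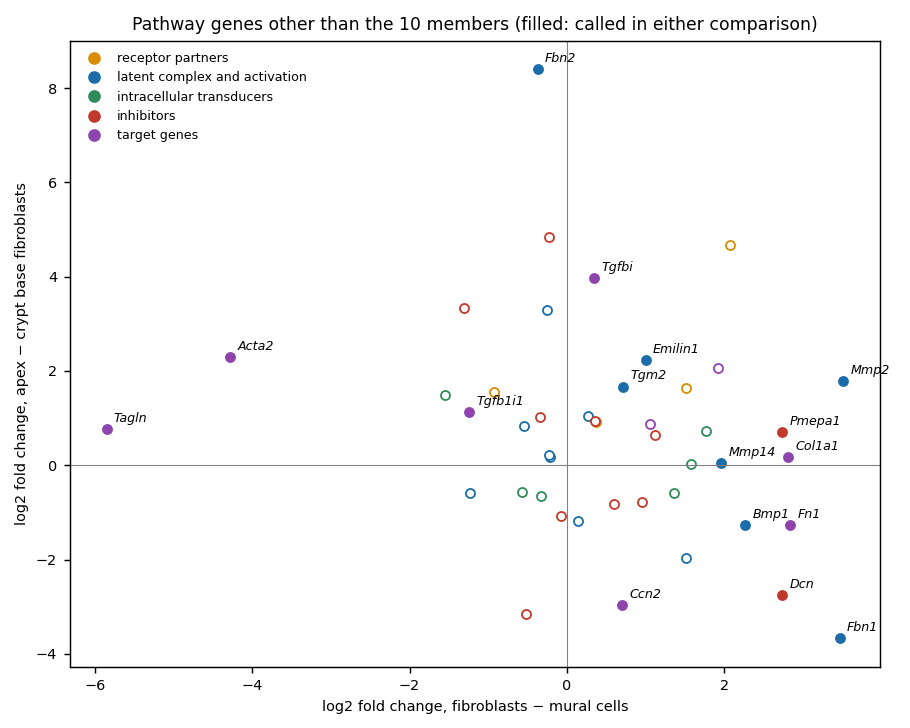
Log2 fold change of 45 pathway genes between fibroblasts and mural cells (horizontal axis) and between apex and crypt base fibroblasts (vertical axis), coloured by list. Filled, named points passed an adjusted p of 0.05 in at least 1 of the comparisons, which share fibroblast cells; *Fbn1* lies at 3.47 and -3.66, and *Tgfbi* at 0.35 and 3.97.

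Likeness of pattern was measured by Pearson's r over the 21 sums of log2(counts per 500000 + 1), among 10981 genes reaching 10 counts per 500000 in some cluster. The sums share lines, plates and clusters, so r is a description. *Tgfbr2* was most like *Itga11* (0.980), *Ssc5d* (0.958) and *Sec61a1* (0.949), the first a collagen-binding integrin subunit. *Ltbp4* was most like *Fyn* (0.943), *Fndc3b* (0.939) and *Pcsk5* (0.936), and *Ltbp3* like *Celf2* (0.928), *Slc44a1* (0.925) and *Pcdhga4* (0.922). *Tgfb2* was followed most closely by *Gpc6* (0.941), *Ccn2* (0.863) and *Calcrl* (0.860).

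Among the genes closest to *Tgfb3* were *Gm37804* (0.965), which overlaps its exons, and *Asap2* (0.896). *Tgfbr3* was most like *Sod3* (0.913), *Carhsp1* (0.907) and *Ntn1* (0.873), and *Tgfbr1* was most like *Dkk3* (0.849), *Col5a2* (0.842) and *Col3a1* (0.841), the last a pair of fibrillar collagens. The values were lower for *Ltbp1* (*Fam69a* (0.798), *Entpd1* (0.788) and *Tmub1* (0.784)) and *Tgfb1* (*Gm12840* (0.718), *Rfc3* (0.716) and *Hspa5* (0.707)), and for *Ltbp2* the genes were *Cd28* (0.831), *Rtl3* (0.787) and *Smoc2* (0.782). Between members, *Tgfbr2* and *Ltbp3* (0.886) and *Ltbp3* and *Ltbp4* (0.844) were the most alike pairs, and *Tgfb3* and *Tgfbr1* (-0.523) the least.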

How the data were processed

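The deposited table holds whole-number raw counts, used here for all 1646 cells. Per the study's methods, the authors trimmed single reads, aligned them to GRCm38 by TopHat2 and assigned them to genes by featureCounts. No molecular identifiers were used, so reads are not independent molecules. The limits given for 0 cells with a count cover the sampling of cells only. The 95% intervals of log2 fold changes come from the edgeR fit and carry the spread between sums. The 92 spike-in rows (1.36% of counts) were left out. Positions are from GENCODE vM21 on GRCm38.

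Counts were summed per line and class (5723218 to 217742647 counts) or cluster (2202988 to 85478239), with at least 10 cells per sum. After TMM scaling and filterByExpr, edgeR's quasi-likelihood test was applied, with a threshold of 0.05 on the Benjamini-Hochberg adjusted p over all genes. The SE is the size of the log2 fold change over the square root of F. The authors' clusters were used and no doublet caller was run. The study's own test took cells as replicates and was not followed.

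The genes named are the 10 members, the 3 genes most like each, and pathway genes called in fibroblasts against mural cells or apex against base, at most 3 per list and direction by log2 fold change, with exceptions named in the text. For *Tgfb3*, 1 of its 3 most alike genes is not reported here. Members, lists and alternatives were chosen with earlier results of these data known. Lines pair the sums of fibroblasts and mural cells, since deviations of same-line sums from their class means correlated over genes at 0.144 to 0.186. For apex and base the values were 0.0537 to 0.0783, and for pericytes and vascular SMC 0.196 (2 pairs). Alternatives were DESeq2, RLE factors, no filter, a line block, at least 3 cells per sum, plates for lines, means per cell with limma on the log2 scale, other samples or weights, and each line left out. The scripts were tested on simulated sums in which 200 genes were changed by a log2 of 4. Of these, 187 were recovered for fibroblasts against mural cells, 130 for apex against base, 131 for the fibroblast clusters and 118 for pericytes. Fewer were recovered for interstitial SMC, so genes not called may still differ. Analyses ran in R 4.3.3 (edgeR 4.0.16, DESeq2 1.42.0, limma 3.58.1) and Python 3.11.15 (pandas 2.3.3, scipy 1.17.1, numpy 2.4.6, matplotlib 3.10.9).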

Additional observations from a re-analysis of the deposited data

Results flagged for a closer look

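Among 20 sets of 4 line values (each member in all fibroblasts and in cluster 5), 3 had a value set apart from the others by Dixon's criterion, where chance gives about 1 in 20. The sets overlap, since cluster 5 is part of the fibroblasts, so the 3 are not separate observations. All 3 concerned Cspg4dsRED, the line with the fewest cells. Its *Tgfb1* level was 8.54 counts per 500000 in fibroblasts, against 0.951 to 1.97 in the other lines, and 17.6 in cluster 5, against 0.779 to 2.69. One of the 13 cluster 5 cells, at 225.7, held 98.7% of the latter sum, and it is also among the 28 fibroblasts behind the former. Immune markers summed to 35.01 in fibroblasts of this line and to 2.34 to 4.86 in the others, and their part was not tested. *Ltbp3* in its fibroblasts was the lowest, at 66.8, against 98.7 to 103.3 elsewhere.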

How the results depend on the processing

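The number of members called in fibroblasts against mural cells (2) was 4 with DESeq2, 5 with plates in place of lines, 4 with equal weight per cluster and 3 with limma, and 0 to 3 with a line left out. It was 3 with at least 3 cells per sum for apex against crypt base (4), and ranged from 1 to 4 with a line left out there and for the fibroblast clusters (4). With DESeq2 and with plates it was 5 for the former, adding *Ltbp2*, and 6 for the latter, adding *Tgfb2* and *Ltbp2*. For the fibroblast clusters it was 5 without the filter, with at least 3 cells per sum and with limma, adding *Tgfb2*, and 5 with fibroblast sums only, adding *Tgfbr2*. For pericytes against vascular SMC (2) it was 3 with DESeq2, adding *Tgfbr1*, 2 with limma, where *Tgfbr1* took the place of *Ltbp1*, 1 with at least 3 cells per sum and 1 with plates, and 0 to 2 with a line left out. For interstitial against vascular SMC (3) it was 5 with DESeq2, 1 without the filter, 5 with limma, 1 with mural sums only, and 1 to 3 with a line left out. *Tgfb2* and *Tgfb3* were called lower there with DESeq2 and limma, *Tgfb3* with at least 3 cells per sum and *Tgfb2* without PdgfraGFP. That comparison was not run without Acta2GFP, since its only interstitial sum is from that line. With the line as a replicate block the counts were 2, 4, 4, 2 and 2 in the order given, and *Tgfbr2* in interstitial SMC was the only member to lose its call.

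Members that were not called changed sign as follows. *Tgfbr3* in fibroblasts against mural cells was -0.23 with equal weight per cluster. In the apex *Ltbp3* was -0.14 with plates and -0.16 with limma, and -0.21 to 0.40 with a line left out, and *Tgfb1* was -0.92 to 3.48. In pericytes *Tgfbr2* was -0.19 and *Tgfbr3* -0.19 with at least 3 cells per sum. There *Tgfbr3* was -0.21 with plates, -0.0746 with limma and -0.00182 to 0.58 with a line left out. *Ltbp2* was -0.0777 with limma and -0.44 to 1.56 with a line left out. *Ltbp3* was 0.14 with plates, 0.83 with limma and -1.36 to 0.80 with a line left out, and *Tgfb1* was -3.73 to 3.06. The causes were not tested. In all, 510 of 588 values of a member in a comparison kept their call, or lack of it, and their direction where the test gives a direction. The joint test of the fibroblast clusters gives none. In fibroblasts against mural cells the median of all genes moved from -0.03 to 0.19 without the filter and to 0.18 with equal weight. Pooling cells moved 13 of 100 levels beyond their tolerance. This was 1 SD over lines or, for interstitial SMC with 1 line, a limit from counting error. All 20 shares of cells with a count moved outside their interval after thinning to 50000 counts. Lines are few, mice are not labelled, and low genes such as *Tgfb1* and *Ltbp2* rest on few cells.

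The share of all genes called also moved. For fibroblasts against mural cells it was 6.57%, 15.6% with DESeq2, 14.2% with plates and 1.81% to 5.81% with a line left out. For apex against crypt base it was 3.66%, 8.63% with DESeq2, 11.3% with plates and 0.700% to 4.93% with a line left out. For the fibroblast clusters it was 7.09%, 14% with DESeq2, 25.1% with plates and 1.06% to 7.92% with a line left out. For pericytes it was 0.819%, 5.59% with DESeq2, 2.86% with plates and 0.226% to 0.974% with a line left out. For interstitial SMC it was 1.01%, 5.12% with DESeq2, 2.37% with plates and 0.485% to 1.64% with a line left out. Of the genes called, 75.8% were higher in pericytes, 53.4% with DESeq2 and 39.4% with mural sums only, and 87.2%, 46.4% and 38.2% were higher in interstitial SMC.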
